A study of Mus musculus with 4 samples.

Results

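The genes described here encode calreticulin, the endoplasmic reticulum (ER) chaperones that work beside it, and proteins tied to immunogenic cell death. They are Calr, Canx, Hspa5, Hsp90b1, Pdia3, Pdia4, Pdia6, Xbp1, Hmgb1 and Anxa1, taken by symbol. All 10 were found among the 55335 genes of the deposited table, each on 1 row, and all 10 were among the 11955 genes tested, those with at least 1 FPKM in at least 2 libraries. RNA-seq was done on 4 libraries of CT26, a mouse colon carcinoma line that the labels call colon adenocarcinoma and, in the growth protocol, mesenchymal cells. CT26_102 and CT26_CTL are labelled FOSL2-WT with PBS as treatment, and CT26_102_R and CT26_CTL_R are labelled FOSL2-KO with chemoradiotherapy. Genotype and treatment therefore change together with the suffix R and cannot be told apart. The first part of each title, CT26_102 or CT26_CTL, is called the stem here, and what the stems and the letter R stand for is not said. The series' design text speaks of KD cells where the labels say KO. Whether a line was a clone, and the dose and time of treatment are not in the labels.

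Nascent proteins enter the ER through a translocon and fold there with the help of chaperones. Calnexin and calreticulin hold glycoproteins by their sugars, BiP (Hspa5) and GRP94 (Hsp90b1) are the ER members of the heat shock 70 and 90 families, and protein disulfide isomerases make and reshuffle disulfide bonds. When unfolded proteins build up, the sensors IRE1, PERK and ATF6 start the unfolded protein response, and spliced XBP1 and cleaved ATF6 raise chaperone transcription. In immunogenic cell death, known from some chemotherapies and from irradiation, dying tumour cells expose calreticulin on their surface as an uptake signal and release HMGB1 and annexin A1, which act on immune cells. The measurements here are of transcripts, so surface exposure and release were not measured.

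A motif known from chaperone promoters, the ER stress response element (ERSE), was searched on both strands in RefSeq promoter windows of build GRCm38.p6, each running from 250 bases before to 50 after a gene's start. The motif is CCAAT, then 9 bases, then CCACG. The sequences are shown because most of the chaperone genes among the 10 carry the motif or miss it by 1 letter. Capitals mark the letters that match CCAAT and CCACG, and every sequence runs 5′ to 3′ on the strand that carries the match.

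Calr: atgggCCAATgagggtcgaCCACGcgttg
Canx: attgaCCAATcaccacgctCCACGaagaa
Hspa5: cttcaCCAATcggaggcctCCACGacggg
Hsp90b1, nearer match: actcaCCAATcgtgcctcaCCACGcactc
Hsp90b1, farther match: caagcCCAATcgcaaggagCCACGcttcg
Pdia6: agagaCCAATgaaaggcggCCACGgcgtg
Pdia3: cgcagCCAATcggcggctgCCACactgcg
Pdia4: gaccaCCAATcacgggctgCCACtcggtt

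The Calr sequence lies at chr8:84847070-84847098 (plus strand, the gene being on minus) and its motif ends 143 bases before the start site. The others lie at chr11:50325795-50325823 for Canx (minus), chr2:34772020-34772048 for Hspa5 (plus), chr10:86705528-86705556 (plus) and chr10:86705633-86705661 (minus) for Hsp90b1, chr12:17266486-17266514 for Pdia6 (plus), chr2:121413868-121413896 for Pdia3 (plus) and chr6:47813597-47813625 for Pdia4 (plus). Those of Hspa5 and Pdia3 are inside the span that GENCODE M21 gives the gene, and the rest are upstream of it. Calr, Canx, Hspa5, Hsp90b1 and Pdia6 held the exact motif, which was in 39 of 32851 windows (0.119%) of 27025 genes. Pdia3 and Pdia4 missed 1 letter of the 10, and 1.5% of all windows held a match with at most 1 letter off. The best matches of Hmgb1, Xbp1 and Anxa1 missed 2, 3 and 3 letters in these windows. A match describes the letters and does not show that a factor binds there.

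The estimated depth was between 21.68 M and 26.46 M reads. Fosl2, the gene named in the labels, was at 9.35, 16, 12.7 and 19.2 FPKM in CT26_102, CT26_102_R, CT26_CTL and CT26_CTL_R, the order used for every set of 4 values here. It was higher, not lower, in each library called FOSL2-KO than in its partner (limma adjusted p = 0.0444). FPKM per gene does not show whether a transcript is intact, and treatment changes with genotype, so the label was not tested. Each direction below is that of libraries as labelled. Of 12 epithelial markers Krt8, Krt18 and Krt20 reached 1 FPKM in at least 2 libraries, while Epcam, Cdx1 and Cdx2 were listed at 0 in all. The epithelial sum was 65.8, 69.9, 67.6 and 114 FPKM, higher with R in both stems. Total FPKM was also higher with R, at 347709, 373359, 377173 and 402969. In the stem CT26_102 the epithelial sum therefore rose only about in proportion to the total. Of 10 myeloid markers 5 reached 1 FPKM, and the list's summed level was 30.7 and 49.4 FPKM without the suffix and 135 and 91.9 with it. Of 8 fibroblast markers 5 did, and their sum was 233, 108, 114 and 81.5 FPKM, lower with R in both stems and higher in the stem CT26_102 in both pairs. Of 8 B and plasma cell markers Sdc1 alone did, and the sum was 14.8 and 21.4 FPKM in the stem CT26_102 and 4.69 and 3.87 in CT26_CTL. The sums of 8 T and NK cell, 6 endothelial and 6 erythroid markers did not exceed 2.01 FPKM in any library. The part of these marker shifts in the results was not tested. Mitochondrially encoded genes took 12.0% and 12.3% of total FPKM in the stem CT26_102 and 9.37% and 9.09% in the stem CT26_CTL, so this share moved with the stem. FPKM, the deposited unit, is a fragment count scaled by transcript length and sequencing depth.

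The 10 transcripts spanned a wide range of abundance. Calr (ENSMUSG00000003814, GRCm38 chromosome 8, 84841850 to 84846934), which encodes the calcium-binding lectin chaperone of the ER lumen, was at 742, 697, 407 and 387 FPKM and ranked 80th of the tested genes by mean FPKM. Hsp90b1 (ENSMUSG00000020048, chromosome 10, 86690209 to 86705509) was at 775, 454, 416 and 239. Hspa5 (ENSMUSG00000026864, chromosome 2, 34771970 to 34777547) was at 358, 459, 330 and 187. Xbp1, the transcription factor gene of the group, was the least abundant, with between 2.79 and 11.1 FPKM, and summed over the 10 genes these transcripts took between 0.369% of total FPKM in CT26_CTL_R and 0.893% in CT26_102.

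**Figure D1:**
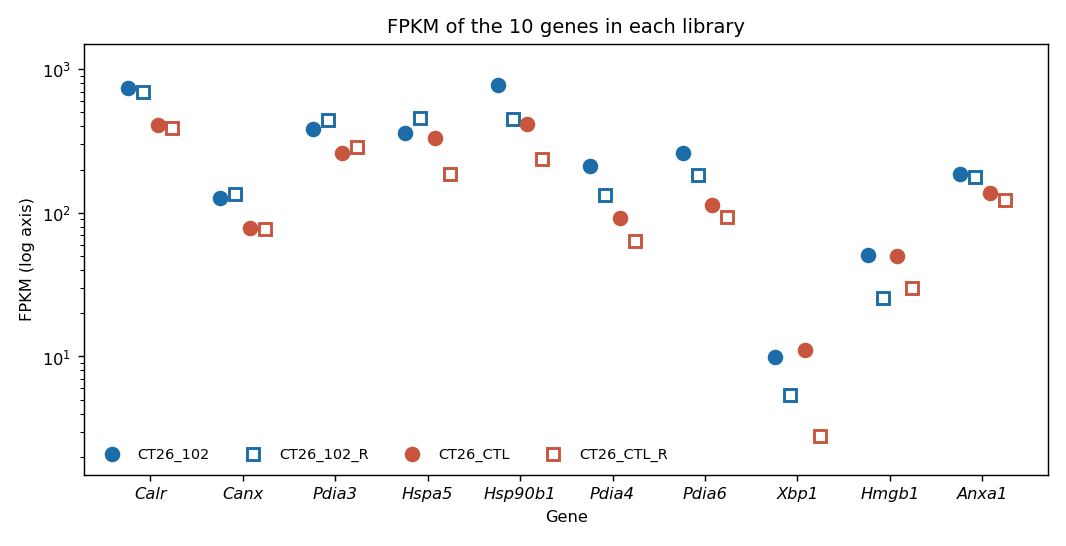
FPKM of each of the 10 genes (log axis) in the 4 libraries, with blue for the stem CT26_102, red for CT26_CTL, filled circles for libraries without the suffix and open squares for those with R. Calr, Canx, Hspa5, Hsp90b1, Pdia3, Pdia4, Pdia6 and Anxa1 lie higher in both blue libraries than in both red ones. Hmgb1 and Xbp1 lie lower in both libraries with R. The shares of all tested genes that separate by stem or by suffix were not counted.

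The first comparison asked how these genes differed between the libraries with suffix R, labelled FOSL2-KO with chemoradiotherapy, and those without it. Hsp90b1, Pdia4, Xbp1 and Hmgb1 fell, and none of the 10 rose. The death signal gene Calr itself differed little, by 0.940 and 0.951 times in the stems CT26_102 and CT26_CTL. The call was an adjusted p below 0.05 in an additive model of stem and suffix (limma), under which 5.32% of all tested genes were lower and 7.57% higher. The median log2 difference of the 10 genes was -0.31, beside 0.0043 over all tested genes. In bulk RNA, fewer cells that express a gene and less RNA per cell cannot be told apart. Marker sums moved with R in both stems, the myeloid and epithelial ones up and the fibroblast one down. The epithelial rise in the stem CT26_102 was only about in proportion to total FPKM.

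Xbp1 (ENSMUSG00000020484, chromosome 11, 5520659 to 5525893), which encodes the transcription factor made when IRE1 splices its message, fell from 9.90 to 5.38 FPKM in the stem CT26_102 and from 11.1 to 2.79 in CT26_CTL. Both libraries with R lay under both without it, and the difference was -1.22 ± 0.24 in log2(FPKM + 1) (SE, n = 2 libraries per side, adjusted p = 0.0422). How many of all tested genes separate by suffix in this way was not counted. FPKM per gene does not separate the spliced from the unspliced form. Hsp90b1, the GRP94 chaperone that folds Toll-like receptors and integrins, fell by almost the same factor in the stems, to 0.585 and 0.574 times (-0.79 ± 0.08, adjusted p = 0.0195). Its levels overlapped between the groups, since CT26_102_R at 454 FPKM was above CT26_CTL at 416. Pdia4 (ENSMUSG00000025823, chromosome 6, 47796141 to 47813430), a disulfide isomerase that works with BiP, fell from 212 to 133 and from 92.5 to 63.2 FPKM (-0.60 ± 0.11, adjusted p = 0.0356), and its groups overlapped in the same way. Without the mean-variance trend in the model the adjusted p of Pdia4 was 0.0556.

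Hmgb1 (ENSMUSG00000066551, chromosome 5, 149046702 to 149184489) encodes a nuclear DNA-binding protein that acts as an alarm signal once outside the cell. It was at 50.8, 25.6, 49.7 and 29.9 FPKM. Both libraries with R were under both without, which was not counted over all tested genes. The log2 difference was -0.84 ± 0.13 (adjusted p = 0.0298). Hmgb1 has 12 rows in the table that are named as its copies or pseudogenes, of which 9 were above 0, and together they held between 50.1% and 57.3% of the FPKM of Hmgb1. Reads may be split among these near-identical copies, so the level of Hmgb1 is uncertain. The copies summed to 27.0, 12.8, 28.5 and 15.1 FPKM, and Hmgb1 with its copies was at 0.493 and 0.576 times in the stems with the suffix R.

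Pdia6 (ENSMUSG00000020571, chromosome 12, 17266545 to 17284770), an isomerase that also binds the sensor IRE1, was at 262, 184, 113 and 94.1 FPKM, a log2 difference of -0.39 ± 0.11 that did not pass (adjusted p = 0.0804). It passed when libraries were rescaled without mitochondrially encoded genes (-0.48, adjusted p = 0.0486). Canx (ENSMUSG00000020368, chromosome 11, 50293961 to 50325673), the membrane-bound partner of calreticulin, was at 126, 136, 78.8 and 77.8, and its difference of 0.04 ± 0.11 had an adjusted p of 0.796. That of Pdia3 (ENSMUSG00000027248, chromosome 2, 121413775 to 121438687), the isomerase that calnexin and calreticulin recruit, was 0.16 ± 0.09 (adjusted p = 0.242), from 383, 441, 262 and 286 FPKM. Anxa1 (ENSMUSG00000024659, chromosome 19, 20373428 to 20390944), an annexin whose secreted form is sensed by formyl peptide receptors, was at 188, 178, 138 and 122 FPKM (-0.12 ± 0.10, adjusted p = 0.411). For Calr the difference was -0.08 ± 0.08 (adjusted p = 0.506). Within each stem the lectin chaperones and Pdia3 thus stayed within 1.15 times of their partner library.

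Hspa5, which encodes BiP, the ER chaperone that also holds the stress sensors inactive, went opposite ways in the stems. It was 1.28 times as high in CT26_102_R as in CT26_102, and 0.566 times as high in CT26_CTL_R as in CT26_CTL. The fitted difference of -0.23 ± 0.28 (adjusted p = 0.581) averages these, and its SE was the largest of the 10 genes. Of all tested genes 22.7% had opposite signs in the stems, and 2.72% did so with more than 1.2 times in both. With 1 library in each cell of the layout, the difference between stems cannot be tested.

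**Figure D2:**
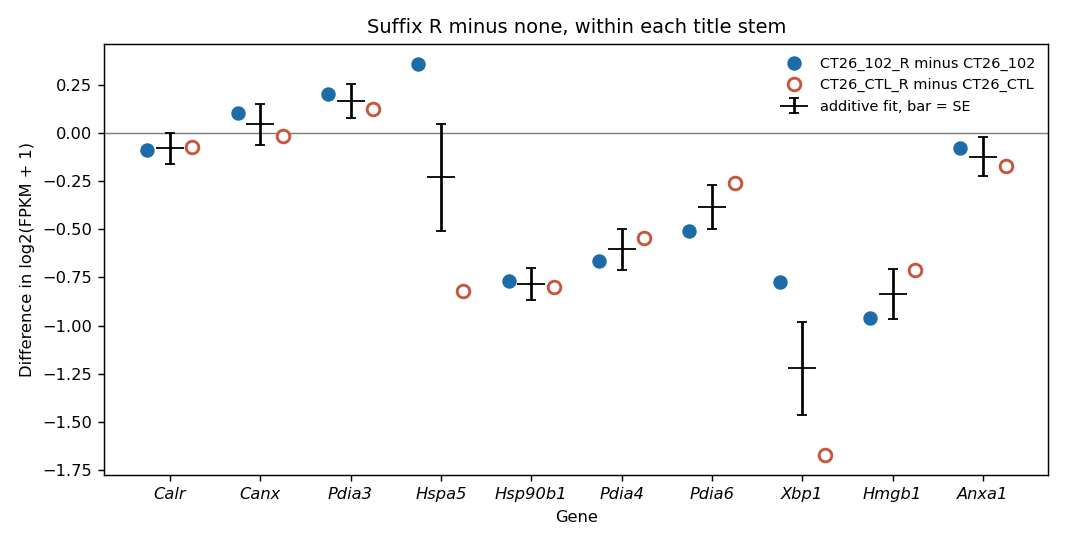
Difference in log2(FPKM + 1) between the library with suffix R and its partner without it, with filled blue circles for the stem CT26_102, open red circles for CT26_CTL, and black ticks with bars for the additive fit and its SE. Hsp90b1 shows nearly equal drops of -0.77 and -0.80, whereas Hspa5 lies at 0.36 in one stem and -0.82 in the other.

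Counted without a model, Hsp90b1, Xbp1 and Hmgb1 were over 1.5 times lower with R in both stems on the FPKM + 1 scale, as were 4.21% of all tested genes. With the suffix alone in the model 0 of the 10 genes passed in limma (2 at an unadjusted p below 0.05), and 0 passed with no expression filter or with any 1 of the 4 libraries left out. Of all tested genes 905 were higher and 636 lower, against 937 and 1011 after upper-quartile rescaling and 748 and 1051 after rescaling without mitochondrially encoded genes. Exonic length moved with the suffix, with a median of 0.15 in the shortest quintile and -0.15 in the longest, and 4 of the 10 passed once it was removed.

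The second comparison asked how the stems differ, with suffix as the other term. Calr, Canx, Hsp90b1, Pdia3, Pdia4, Pdia6 and Anxa1 were higher in the stem CT26_102, 7 of the 10, and none was lower. Under the same call 12.5% of all tested genes were higher and 9.44% lower. The median log2 difference of the 10 genes was 0.72, beside 0.05 over all tested genes and -0.17 over the quintile of tested genes with the highest mean FPKM, which held 9 of the 10.

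Pdia4 and Pdia6 differed most. Pdia4 was 2.29 and 2.11 times as high in the stem CT26_102 without and with R, a log2 difference of 1.13 ± 0.11 (SE, n = 2 libraries per stem, adjusted p = 0.00784). For Pdia6 the factors were 2.32 and 1.95 (1.08 ± 0.11, adjusted p = 0.00966). In both, each library of the stem CT26_102 was above each library of CT26_CTL. How many of all tested genes separate by stem in this way was not counted. Hsp90b1 was 1.86 and 1.90 times as high (0.91 ± 0.08, adjusted p = 0.00784). Its levels did not overlap between the stems either.

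Calr was 1.82 times as high in CT26_102 as in CT26_CTL and 1.8 times with R, so both pairs gave nearly the same factor (0.85 ± 0.08, adjusted p = 0.00784). Its lectin partner Canx was 1.6 and 1.74 times as high (0.73 ± 0.11, adjusted p = 0.0169) and Pdia3 1.46 and 1.54 times (0.59 ± 0.09, adjusted p = 0.0179). Anxa1 was 1.37 and 1.46 times as high (0.49 ± 0.10, adjusted p = 0.0320, or 0.0593 without the mean-variance trend). For each of these 4 genes the stems did not overlap, again without a count over all tested genes.

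Hspa5 was at about the same level in CT26_102 and CT26_CTL (1.08 times) and 2.46 times as high in CT26_102_R as in CT26_CTL_R, and its stem difference of 0.70 ± 0.28 did not pass (adjusted p = 0.127). For Hspa5, too, each library of the stem CT26_102 was above each library of CT26_CTL, but without R only narrowly, at 358 against 330 FPKM. This separation does not change that the difference did not pass. Xbp1 went from 0.895 times without R to 1.93 times with R (0.30 ± 0.24, adjusted p = 0.390). Hmgb1 was at 1.02 and 0.855 times (-0.09 ± 0.13, adjusted p = 0.623).

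**Figure D3:**
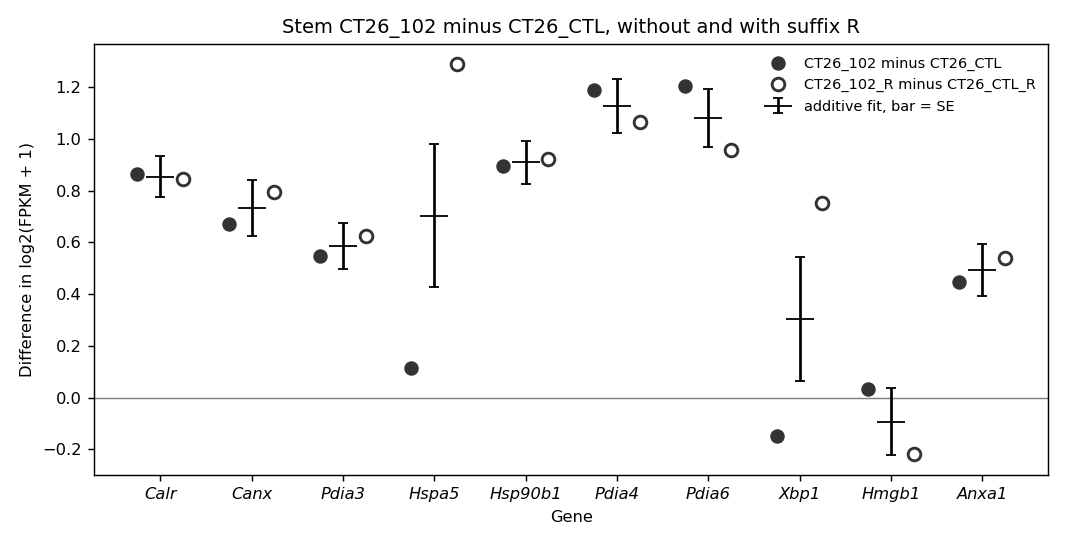
Difference in log2(FPKM + 1) between stems CT26_102 and CT26_CTL, with filled circles for the libraries without R, open circles for those with R, and black ticks with bars for the additive fit and its SE. The 7 genes that passed have both circles between 0.45 and 1.21, while Xbp1 and Hmgb1 have circles on both sides of 0.

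Over 1.5 times higher in the stem CT26_102 in both pairs were Calr, Canx, Hsp90b1, Pdia4 and Pdia6, as were 8.56% of all tested genes. With the stem alone in the model 0 of the 10 passed in limma (6 at an unadjusted p below 0.05), and 0 passed with no expression filter or with any 1 of the 4 libraries left out. Exonic length moved with the stem too, from a median of -0.16 in the shortest quintile to 0.27 in the longest, and after its removal 7 of the 10 passed, Calr at 0.87. The share of mitochondrially encoded genes, the fibroblast marker sum and the B and plasma cell marker sum were also higher in the stem CT26_102 in both pairs. Rescaling without the mitochondrially encoded genes put the median of all genes at 0.18 and Calr at 1.02, with 2450 genes higher and 761 lower against 1494 and 1129 as deposited. That balance turned to 1189 higher and 1312 lower with median-of-ratios rescaling, which left Calr at 0.79, and was 1100 and 1085 once the length trend was removed.

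The exact ERSE was also searched among other genes, a description chosen after the values were seen. Besides the 5 chaperone genes, 8 tested genes had it in a promoter window. Of these 8, 6 were higher in the stem CT26_102 and 0 lower (median 0.88), and 0 rose and 1 fell with R (median -0.26). Of all tested genes 12.5% were higher and 9.44% lower in that stem (median 0.05), and 7.57% rose and 5.32% fell with R. The 6 higher genes with the motif included the BiP co-chaperone Dnajc3 at 43.0, 32.9, 17.6 and 16.8 FPKM. The ER protein gene Creld2 was another, at 126, 112, 64.1 and 58.6. Syvn1, the ubiquitin ligase of ER-associated degradation, was at 12.3, 12.9, 6.29 and 8.93, and Alg12, a mannosyltransferase that builds N-glycans, at 15.8, 18.9, 9 and 9.85. Zfp57 and Acacb, which are not ER chaperones, were higher too, with log2 differences of 1.88 and 1.12. Hnrnpa3, an RNA-binding protein gene, fell with R from 151 to 63.8 and from 155 to 44.8 FPKM. Dnajc3 and Creld2 are counted again below among the BiP co-chaperones, and Syvn1 among the ER-associated degradation genes. These counts therefore overlap, and a link between the motif and the stem difference was not tested.

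Counts in this and every later list stand beside the shares over all tested genes. These were 7.57% higher and 5.32% lower with R, and 12.5% higher and 9.44% lower in the stem CT26_102. Of 12 tested genes of the lectin chaperone cycle and glycan trimming, 3 were higher in the stem CT26_102 and 0 lower (median 0.22). They were Uggt1, the folding sensor that returns glycoproteins to calreticulin, at 14.9, 15.6, 7.52 and 7.55 FPKM, the mannosidase-like Edem1 at 24.1, 19.9, 12.7 and 9.25, and the ER lectin malectin, Mlec, at 80.4, 81.3, 42.7 and 42.2. Their levels did not overlap between stems, which was not counted over all tested genes. With R 1 gene of this list rose, Prkcsh, the glucosidase II beta subunit, from 37.3 to 65.8 and from 33.6 to 53.9, and 0 fell (median 0.06). The share that rose was near that of all tested genes.

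Of 20 co-chaperones, exchange factors and folding helpers of BiP, 4 were higher in the stem CT26_102 and 0 lower (median 0.18), namely Dnajc3, Creld2, Sdf2l1 and Hyou1. Hyou1, a large ER chaperone of the heat shock 70 family, was at 25.1, 16.5, 11.3 and 7.93 FPKM. With R, Sdf2l1 fell (51.4, 33.8, 29.2 and 17.3), as did the disulfide reductase Dnajc10 (51.3, 33.9, 38.4 and 26.5), and Fkbp10, a prolyl isomerase of collagen folding, rose (40.5, 56.7, 35.3 and 52.9). The list median with R was -0.22. Ppib, the prolyl isomerase cyclophilin B and the most abundant of the list, did not pass in either comparison, at 104, 121, 87.4 and 107 FPKM.

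Of 20 other disulfide isomerases, oxidases and related genes, 4 fell with R and 2 rose (median -0.26). Ero1l, the oxidase that passes electrons from isomerases to oxygen, fell from 141 to 84.0 and from 116 to 67.2 FPKM. P4hb, the founding protein disulfide isomerase, fell from 473 to 309 and from 385 to 292, and Tmx3 fell from 4.29 to 2.01 and from 5.54 to 3.26. The selenoprotein gene Selenom rose from 23.1 to 33.7 and from 10.5 to 20.9. Between stems 2 were higher and 2 lower (median 0.23), shares near those of all tested genes. Txndc5, an isomerase, was lower in CT26_102 (40.6, 25.2, 67.5 and 53.1), and Qsox1, a sulfhydryl oxidase, was higher (7.40, 9.62, 3.47 and 4.61).

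Of 20 sensors and regulators of the unfolded protein response, 3 rose with R and 1 fell (median 0.04). Ppp1r15a, the phosphatase subunit that reverses the translation block, rose from 35.0 to 91.0 and from 80.3 to 257 FPKM, and Creb3, an ER-anchored transcription factor gene, from 13.3 to 37.4 and from 17.2 to 34.1. Mbtps1, the protease that cleaves ATF6, fell from 13.1 to 6.48 and from 9.20 to 6.17. Between stems 1 was higher and 2 lower (median -0.03). The shares that fell with R and were lower between stems were near those of all tested genes. Atf4, the transcription factor of the PERK branch, was lower in CT26_102 (101, 114, 318 and 163), as was Ppp1r15a, while the CCAAT-binding subunit gene Nfya was higher (7.90, 7.14, 3.32 and 4.49). As the third gene that rose, the CCAAT-binding subunit gene Nfyb went from 5.2 to 10.3 and from 6.27 to 9.35. The sensor genes Ern1 (IRE1), Eif2ak3 (PERK) and Atf6 did not pass in either comparison, with levels of 7.75 to 14.2, 3.32 to 5.97 and 15.2 to 20.4 FPKM. Ddit3, at 39.4, 226, 148 and 236 FPKM, had the largest difference of the list with R but did not pass (1.58 ± 0.42, limma adjusted p = 0.0677).

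The remaining secretory lists are read against the shares over all tested genes, 7.57% higher and 5.32% lower with R and 12.5% higher and 9.44% lower in the stem CT26_102. Of 23 ER-associated degradation genes, 1 rose with R and 0 fell, and 2 were higher and 0 lower in the stem CT26_102 (medians 0.00019 and -0.03). Sel1l, the adaptor of the ligase Syvn1, was at 20.4, 16.9, 8.09 and 7.66 FPKM, and Selenos rose from 38.6 to 63.6 and from 37.0 to 53.0. Vcp, the segregase that pulls proteins from the membrane, did not pass (104, 94.5, 100 and 95.4). Of 31 translocon and signal peptide genes, 1 rose and 2 fell with R, and 4 were higher and 2 lower in CT26_102 (medians -0.17 and 0.18). Tram1, a membrane protein beside the translocon, was at 30.0, 16.8, 8.25 and 5.41, and Srp14 of the signal recognition particle rose from 33.8 to 83.6 and from 49.9 to 116. The translocon-associated Ssr4 was lower in CT26_102 (18.7, 17.2, 34.4 and 35.6), Srp54b, uncertain for its near-identical copies, was higher (26.3, 34.9, 15.5 and 17.6), and Ssr3, the most abundant of the list, did not pass (164, 138, 146 and 126). Ostc, an oligosaccharyltransferase subunit gene, fell with R from 42.4 to 25.1 and from 38.8 to 27.4. The share of this list higher in CT26_102 was near that of all tested genes. Of 21 KDEL retrieval and coat genes, 0 rose and 2 fell with R, and 3 were higher and 0 lower in CT26_102 (medians -0.18 and 0.21). Sec23a, a COPII coat subunit, was at 18.3, 11.1, 4.81 and 3.45, and its partner Sec24d fell with R from 15.0 to 5.00 and from 10.8 to 5.09. The cargo receptor gene Tmed2, the most abundant of the list, fell to 0.685 and 0.72 times, and the coat genes Sec24c (23.8, 17.8, 12.1 and 10.6) and Copa (41.3, 31, 19.1 and 17) were the others higher in CT26_102. Of 15 ER calcium genes, 0 rose and 1 fell with R, the channel gene Itpr3, and 2 were higher and 2 lower in CT26_102 (medians -0.12 and 0.10). Calu, a calcium-binding chaperone of the secretory pathway, was lower in that stem at 46.4, 62.0, 141 and 101 FPKM. The calcium channel gene Itpr1 (3.35, 1.8, 0.864 and 0.52) and the calcium-binding Nucb1 (38.8, 41.7, 20.6 and 25) were higher. In the coat and calcium lists, too, the share higher in CT26_102 was near that of all tested genes.

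**Figure D4:**
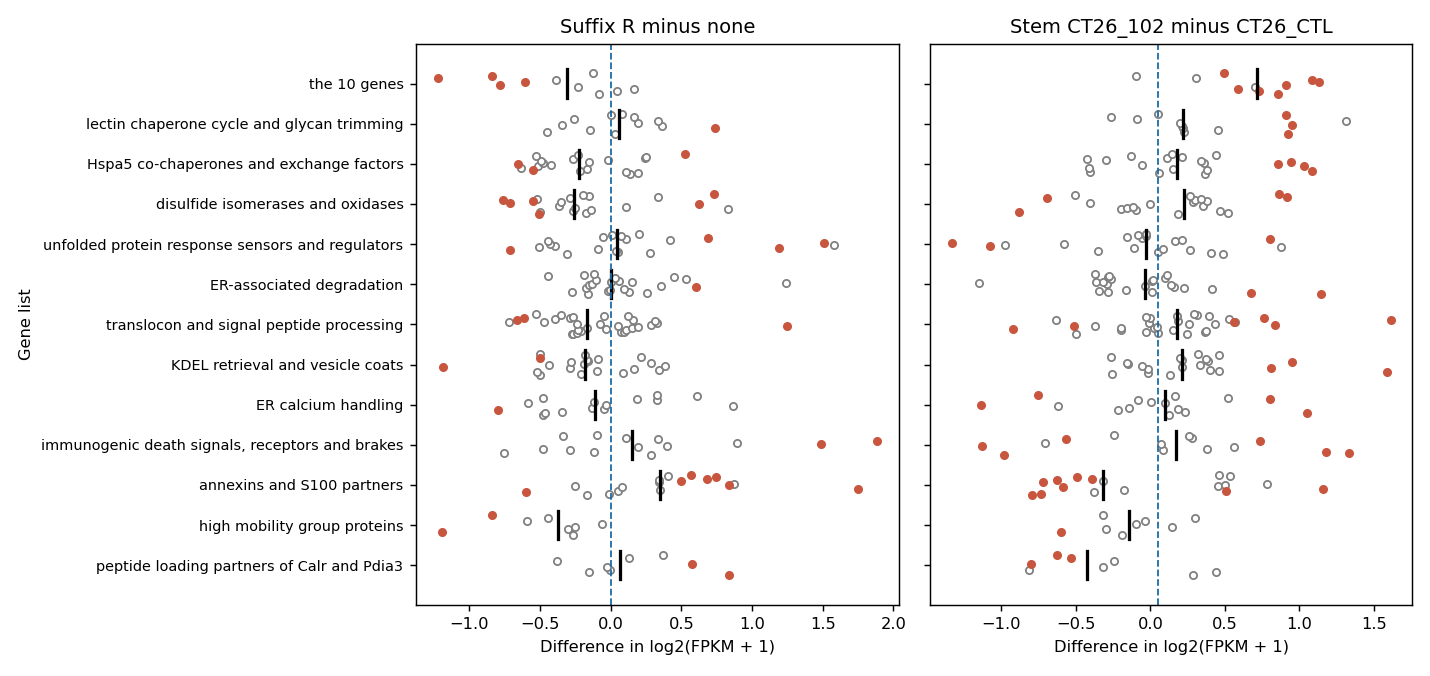
Difference in log2(FPKM + 1) of each tested gene of the 10 genes and of 12 partner lists, left for suffix R minus none and right for stem CT26_102 minus CT26_CTL, with red circles for genes that passed, open grey circles for those that did not, black bars for list medians and a dashed line for the median of all tested genes. The 10 genes have medians of -0.31 and 0.72, and the peptide loading list lies at -0.43 between stems.

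Of 30 genes for immunogenic death signals, receptors and brakes, 14 passed the expression filter, of which 2 rose and 0 fell with R (median 0.15). Over all tested genes 7.57% rose and 5.32% fell with R. P2rx7, a receptor for extracellular ATP, rose from 1.95 to 12.3 and from 3.48 to 6.86 FPKM, and Qpctl, which modifies the CD47 protein so that it binds its receptor, from 2.76 to 15.9 and from 1.75 to 7.32. Between stems 3 were higher and 3 lower in CT26_102 (median 0.17), beside 12.5% and 9.44% of all tested genes. Lrp1, a receptor for calreticulin, was at 71.0, 31.8, 21.0 and 15.9, while Cd47, the signal that opposes calreticulin in uptake, was lower in that stem at 9.60, 14.6, 24.3 and 24.5 (-0.98, adjusted p = 0.0244). Qpctl went the other way from Cd47, being 1.58 and 2.17 times as high in the stem CT26_102 (0.74, adjusted p = 0.0483). The uptake receptor gene Mertk was also higher there (3.49, 2.66, 0.762 and 0.828), and Havcr2, the gene of TIM-3, was lower (0.707, 0.992, 2.3 and 3.91). Txn1, thioredoxin and the most abundant of the list, did not pass (336, 287, 364 and 373). Tlr4, a receptor for HMGB1, was between 3.08 and 6.41 FPKM, and the annexin A1 receptor genes Fpr1 and Fpr2 did not exceed 0.210 FPKM.

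Of 17 tested annexin and S100 genes besides Anxa1, 6 rose with R and 1 fell (median 0.35), and 2 were higher and 7 lower in the stem CT26_102 (median -0.32). Over all tested genes 7.57% rose and 5.32% fell with R, and 12.5% were higher and 9.44% lower in that stem. The shares of this list that fell with R and were higher in CT26_102 were near these. S100a11, a known partner of annexin A1, rose from 1320 to 2070 and from 1690 to 2770 FPKM. Anxa8 rose from 72.0 to 202 and from 26.0 to 109, and it was higher in CT26_102 like Anxa1. Anxa2 was lower in that stem, at 456, 379, 738 and 706 FPKM, opposite to Anxa1. S100a4, the most abundant of the list (1530, 1730, 2250 and 3200), Anxa3 (98.6, 111, 187 and 163) and S100a13 were lower there as well. With R, S100a13 rose from 40.1 to 62 and from 51.9 to 96, and S100a1 from 57.4 to 90.8 and from 35.3 to 72.5. Of 8 high mobility group genes besides Hmgb1, 0 rose and 2 fell with R, Hmgb3 (16.6, 5.92, 23.1 and 10.6) and Hmgn5 (15.6, 8.28, 19.6 and 10.6), and Hmgb3 was the single gene that passed between stems, being lower in CT26_102 (medians -0.38 and -0.14). For so short a list, the share lower in CT26_102 was near the 9.44% of all tested genes. Hmgb2, the closest relative of Hmgb1, did not pass (90.9, 69.1, 95.2 and 86.0), nor did Hmgn1, the most abundant of the list (136, 132, 148 and 139).

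Calreticulin and Pdia3 also help load peptides onto MHC class I molecules. Of 8 partners in that task, Tap1 and B2m rose with R, and B2m, H2-K1 and H2-D1 were lower in the stem CT26_102 (medians 0.06 and -0.43). Over all tested genes 7.57% rose with R and 9.44% were lower in that stem. B2m, the class I light chain, was at 810, 1250, 1470 and 2100 FPKM, so Calr and B2m went in opposite directions between stems.

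The genes whose profile was nearest to that of Calr were found by Euclidean distance between centred log2(FPKM + 1) profiles over the 4 libraries, among 4648 genes with a mean of at least 10 FPKM. They were Arhgap1, Actn4, Prpf8, Net1 and Sf3b3, with distances from 0.0700 to 0.0972. Among the 10 genes themselves Calr was nearest to Canx (0.188) and Pdia4 to Pdia6 (0.232), whereas the nearest of the 10 lay at 0.592 from Hspa5 and, farther still, at 0.797 for Xbp1 and Hmgb1, which were each other's nearest.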

How the data were processed

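RNA-seq was measured in 4 libraries. Per the labels' protocols, RNA came from an RNeasy kit and libraries from a SMARTER kit. The authors deposited FPKM per gene, and GRCm38 and mm10 are the builds in the submitters' processing notes. The aligner, the quantification tool and strandedness were not given in the sources used here. Positions and exonic lengths came from GENCODE M21, and sequences from RefSeq.

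Groups followed the labels and title stems. No label states that the libraries are separate cultures, and each pairing of stem and suffix holds 1 library. In the additive model, SEs and p-values rest on how far the suffix difference disagreed between the stems, moderated over all genes, and not on replicates. That disagreement may be technical. Depth was estimated from the steps of low FPKM values in genes with 1 transcript, where 32.7% to 33.7% of values were whole reads within 0.02, so counts were not recovered. Genes with at least 1 FPKM in at least 2 libraries were tested as log2(FPKM + 1), which understates folds of low genes, with limma 3.58.1 in R 4.3.3 (eBayes with trend, two-sided, Benjamini-Hochberg over 11955 genes, threshold 0.05). The model held stem and suffix, leaving 1 residual degree of freedom to which the prior added 4.01. The script was tested on simulated data. An exact permutation test of 2 against 2 cannot go below p = 0.333, so none was run.

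The genes, lists and tests were chosen with earlier results of these data known. Text names, per list and comparison, up to 3 genes that passed with the largest difference and the most abundant gene. Cd47, Nfyb, Ddit3, S100a11, Hmgb2, Tlr4, Fpr1, Fpr2, the sensor genes and the genes with an ERSE were added after their values were seen. One symbol on several rows was left out of the lists. Alternatives covered model terms, pseudocount, filter, scaling, trend, gene length and each library left out.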

Additional observations from a re-analysis of the deposited data

Results flagged for a closer look

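Hspa5 and Canx had suffix differences of opposite sign in the stems, and the difference between stems was not tested, since each stem holds 1 library with and 1 without R. For Hspa5 the log2 difference was 0.359 in the stem CT26_102 and -0.819 in CT26_CTL. For Canx it was 0.105 and -0.0185, both small. Of all tested genes 22.7% had opposite signs in the stems, so this is not particular to these genes. With more than 1.2 times in both stems the share was 2.72%.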

How the results depend on the processing

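The stems are not replicate numbers, and they served as the block in the additive model. Without that block, limma called 0 of the 10 genes between suffixes and 0 between stems (unadjusted p below 0.05 for 2 and 6), with 1 and 34 genes called in all. With no expression filter 0 of the 10 genes and 0 of all genes passed in either comparison, while 5 and 7 of the 10 had an unadjusted p below 0.05. With 1 library left out, the model held the tested division alone, 0 of the 10 genes passed in either comparison, and between 2 and 11 genes passed in all for the suffix and between 0 and 16 for the stem. Pseudocount, stricter filter, scaling, trend and length settings left between 3 and 5 of the 10 called for the suffix and 6 or 7 for the stem. Directions of the suffix calls of all genes depended on scaling: 905 higher and 636 lower as deposited, 937 and 1011 with upper-quartile rescaling, 748 and 1051 without mitochondrially encoded genes. For the stem these were 1494 and 1129 as deposited, 2450 and 761 without mitochondrially encoded genes, 1189 and 1312 with median-of-ratios rescaling, 1061 and 1121 with the 5 FPKM filter, and 1100 and 1085 without the length trend.

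None of the differences that passed for the 10 genes changed sign under any setting run, though some shrank greatly with 1 library left out. Among those not called, Canx turned to -0.0176 with upper-quartile rescaling and -0.055 without mitochondrially encoded genes (suffix), and Hmgb1 to 0.0633 without them (stem). With 1 library left out, suffix differences ran from -0.512 to 0.351 for Calr, -0.354 to 0.440 for Canx, -0.876 to 0.416 for Hspa5, -0.148 to 0.476 for Pdia3, -0.99 to 0.217 for Pdia6 and -0.393 to 0.145 for Anxa1, and stem differences from -0.533 to 1.14 for Xbp1 and -0.575 to 0.388 for Hmgb1. The called suffix differences ran from -1.2 to -0.0102 for Pdia4 and from -1.25 to -0.323 for Hsp90b1 in these fits. Those of Xbp1 ran from -1.6 to -0.846 and those of Hmgb1 from -0.947 to -0.729. Such fits mix stem with suffix by construction. Of 24 list counts, all moved by over 1.5 times without the block and without the filter, and between 3 and 11 under the other settings with all libraries. With any 1 library left out, every list count fell to 0, in 96 of 96 cases. The cause was not tested. The removal of the length trend was chosen after seeing the data.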
